A study of Mus musculus with 6 samples.

Results

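The 9 genes described here encode the Rab3 GTPases Rab3a, Rab3b, Rab3c and Rab3d and 5 further parts of the granule exocytosis machinery: Rab27a, Vamp2, Snap25, Stx1a and Syt7. They are 9 of 20416 genes measured. The set was selected on earlier results of these same arrays, in which Rab3c was much lower in a clone carrying a Meg3 plasmid than in a vector clone, and the other genes were added for their known roles. The clone differences of all 9 are therefore given as descriptions. Where a count of members past a threshold is printed, it stands beside the share of all genes or probe sets and supports nothing. A gene was measured by every probe set to which the array annotation gave exactly 1 symbol, which yielded 98 probe sets, from 7 for Vamp2 to 14 for Rab27a and Syt7. A probe set on this array reads a short stretch of a transcript, and 0 probe sets named a member together with another gene.

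RNA came from MIN6-4N, a mouse insulinoma line that models the pancreatic beta cell. In the vector group the cells were 1 clone that had stably integrated the empty plasmid pcDNA3.1, and in the Meg3 group they were 1 clone with the same plasmid carrying mouse Meg3, an imprinted long non-coding RNA. Both clones went through nucleofection and 5 weeks of G418 at 750 µg/ml, and both were then grown in low-glucose medium with 15% serum and 500 µg/ml G418. The titles and the extraction protocol give the Meg3 clone different numbers, and the descriptions speak of a sort that no protocol describes. Each group holds 3 arrays from independent cultures of its clone, so the SDs below are between cultures, and an effect of Meg3 cannot be told apart from any other difference between the clones. All values are log2 values as the authors normalized them, a difference is the Meg3 clone minus the vector clone, and an SE is the moderated standard error of a limma fit over all genes.

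Beta cells hold insulin in dense granules that fuse with the plasma membrane when calcium enters. Rab3 proteins and Rab27a are small GTPases that sit on the granule in their GTP form and recruit effectors that bring it to the release site, and the Rab3 paralogues overlap in function in neurons and endocrine cells. Fusion is driven by SNARE proteins, with Vamp2 on the granule and Snap25 and Stx1a on the plasma membrane, and synaptotagmins such as Syt7 sense calcium.

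The labelled cell type was checked against its markers. Of 9 beta cell markers, 8 lay above the median of all genes (6.66), among them the insulin gene Ins2, with clone means of 12.54 (vector) and 12.60 (Meg3). Among markers of other cells, the glucagon gene Gcg was bright in both clones (12.82 and 12.66), as was Gad2 of the neuron list (9.78 and 9.73), and Cd68 of the immune list read 8.62 and 8.33. Above that median lay 3 of 4 alpha cell, 2 of 5 neuron, 2 of 4 immune, 1 of 5 fibroblast and 1 of 1 PP cell markers, 0 of 2 delta cell and 0 of 5 acinar markers. No marker of the 8 cell types listed was called by limma, where 0.666% of all genes were called. For so few markers that count says little. Meg3 was 3.30-fold higher in the Meg3 clone (log2 difference 1.72, SE 0.19). Vector replicate 2 and Meg3 replicate 1 stood apart: the SD of their probe sets around a median array was 0.86 and 0.64, and it was 0.43 to 0.48 on each remaining array. Across genes, the deviations of these arrays from their group means correlated at 0.65. Vector replicate 2 was the lowest vector culture for all 9 members, and for 37.6% of all genes. Meg3 replicate 1 was the lowest Meg3 culture for 7 of the 9, and for 37.7% of all genes. The part of these arrays in the results below was not tested beyond the values given without them.

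Rab3c was lower in every culture of the Meg3 clone. Its values were 8.34, 8.11 and 8.23 in the vector cultures and 6.38, 5.96 and 6.53 in the Meg3 cultures, so the lowest vector culture lay well above the highest Meg3 culture. The means were 8.23 ± 0.12 (SD, n = 3) and 6.29 ± 0.30 (SD, n = 3), and the Meg3 mean lay under the median of all genes (6.66). The difference was -1.94 (SE 0.17, 95% confidence interval -2.32 to -1.55), or 3.83-fold. RNA was pooled over cells, so fewer cells with the transcript and less of it per cell cannot be told apart. In the limma fit 0.666% of all genes were called either way and 0.465% were called lower (Benjamini-Hochberg adjusted p under 0.05), and 1 of the 9 members, Rab3c, was among them. Since the set was built around this value, nothing is read from that count. Without vector replicate 2 and Meg3 replicate 1 the difference was -2.04 (SE 0.16).

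**Figure D1:**
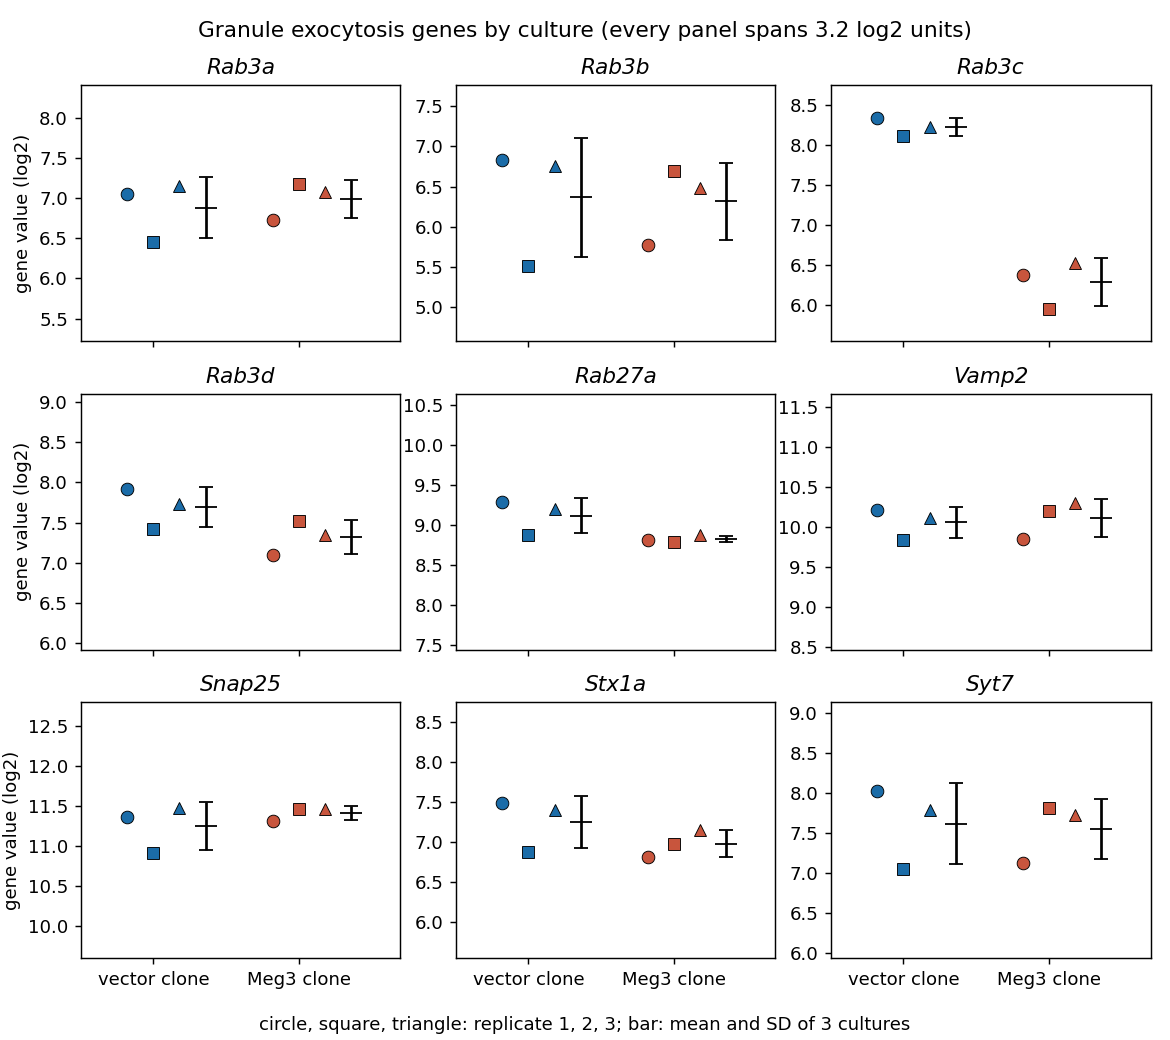
Gene value (log2) of each of the 9 exocytosis genes in 3 vector cultures (blue) and 3 Meg3 cultures (red), with circle, square and triangle for replicates 1, 2 and 3 and a black bar for the mean and SD. For Rab3c the Meg3 cultures (5.96 to 6.53) lie far below the vector cultures (8.11 to 8.34), whereas for the other genes the groups overlap or, for Rab27a, nearly touch.

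The Rab3c difference was spread over most of its probe sets. All 9 had negative differences, from -3.44 to -0.18, and in 7 of the 9 every Meg3 culture was below every vector culture, where this held for 5.41% of all probe sets. Probe set 10412067 read 10.28, 10.59 and 10.51 in the vector cultures and 6.79, 7.49 and 6.78 in the Meg3 cultures, the largest difference of the gene (-3.44). The brightest, 10412070, read 10.81 to 11.05 in the vector cultures and 8.63 to 9.13 in the Meg3 cultures (-1.97), so it kept a value above the median of all probe sets (7.10) in the Meg3 clone. The exceptions were the last by identifier. Probe set 10412074 read 6.29, 5.15 and 6.49 against 5.19, 5.66 and 6.53 (-0.18), and 10412075 read 7.49 to 8.34 against 6.56 to 7.89 (-0.67). For both, the clones overlapped. Tested singly over all 241419 probe sets, 0 of the 98 member probe sets were called by limma, where 2 of all probe sets were. At an unadjusted p under 0.05 there were 15 lower, 7 of them of Rab3c, and 0 higher, where 3.07% of all probe sets were lower and 2.59% higher. Since the set was chosen on Rab3c, nothing is read from these counts.

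The size of the Rab3c difference depended on which probe sets were averaged. With only the later probe sets of each gene by identifier, the last 5 of 9 for Rab3c, a summary chosen after these values were seen, it was -1.46 (SE 0.17) in place of -1.94 with all 9.

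**Figure D2:**
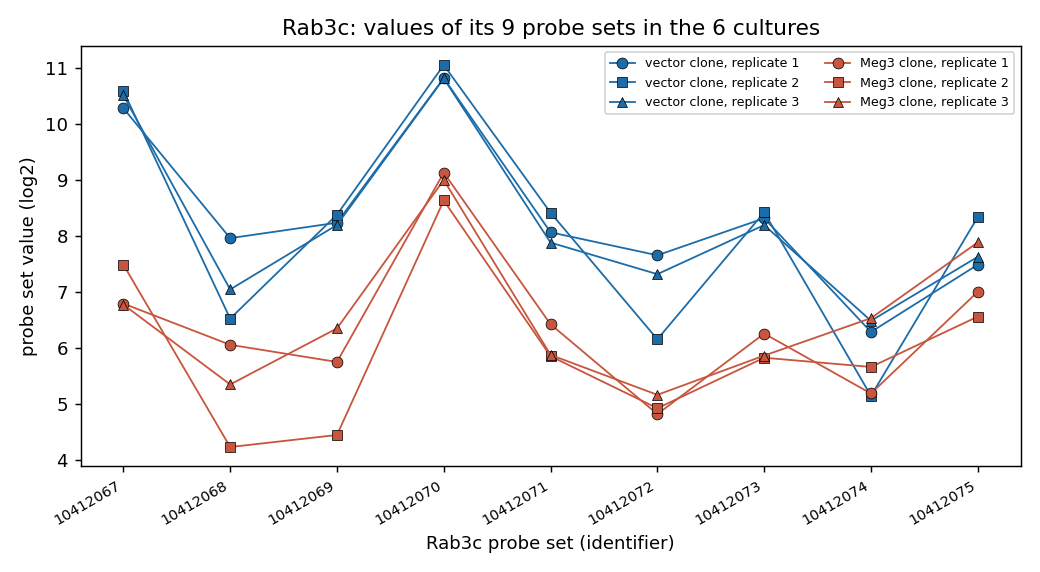
Value (log2) of the 9 Rab3c probe sets, ordered by identifier, with 1 line per culture (blue, vector clone; red, Meg3 clone). The lines of the clones are separate over the first 7 probe sets and cross at the last 2, 10412074 and 10412075.

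The other Rab3 paralogues were examined for a difference in the opposite direction. Rab3a, the most studied isoform at synapses, read 7.05, 6.45 and 7.15 in the vector cultures and 6.73, 7.18 and 7.08 in the Meg3 cultures. Its low value in vector replicate 2 widened the spread, and the groups overlapped, with a difference of 0.11 (SE 0.21, 95% interval -0.37 to 0.59). Rab3b, an isoform found in endocrine cells, read 6.83, 5.51 and 6.75 against 5.77, 6.69 and 6.49. The low readings were those of the arrays that stood apart, the groups overlapped, and the difference was -0.05 (SE 0.37, interval -0.90 to 0.81). The Rab3b means of 6.36 and 6.32 were under the median of all genes (6.66). The arrays that stood apart lowered both means, and the other cultures, at 6.83, 6.75, 6.69 and 6.49, read near that median. Rab3d, known from secretory granules of exocrine and endocrine cells, read 7.92, 7.42 and 7.73 against 7.10, 7.51 and 7.35. The groups overlapped, through vector replicate 2 and Meg3 replicate 2 alone, and the difference was -0.37 (SE 0.17, interval -0.76 to 0.02). With the median of its probe sets in place of their mean it was -0.81 (SE 0.18).

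No paralogue was therefore higher in the Meg3 clone by more than the spread between cultures. The upper ends of these intervals were a 1.51-fold higher level for Rab3a, 1.75-fold for Rab3b and 1.01-fold for Rab3d. Over the alternative settings they ran from 1.18-fold to 1.71-fold for Rab3a, from 1.02-fold to 2.72-fold for Rab3b and from 0.762-fold to 1.12-fold for Rab3d, so a higher level of Rab3b was poorly bounded. Without the arrays that stood apart the differences were 0.03 (SE 0.10) for Rab3a, -0.20 (SE 0.11) for Rab3b and -0.40 (SE 0.11) for Rab3d, and the upper ends were 1.19-fold, 1.02-fold and 0.902-fold. The arrays were left out for their deviation in these same data, so the narrower intervals of that fit are no independent bound. In that fit the interval of Rab3d lay below 0, the same direction as Rab3c. It also did with array centring, repeated quantile normalization, the brightest probe set or the median of probe sets. The same held when vector replicate 2 or Meg3 replicate 2 was left out alone. In the main fit and the remaining alternatives the Rab3d interval reached above 0. The RNA of the 4 paralogues was not summed, because probes of different genes share no scale. How much of the summed Rab3 message Rab3c makes up is therefore unknown here. Paralogues are alike in their coding sequence, and signal shared between their probes was not tested.

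Probe sets gave the same picture for the other paralogues. Of their 29 probe sets, 17 had negative and 12 positive differences, and in 3 every Meg3 culture was below every vector culture, whereas in 0 was every one above (5.41% and 6.08% of all probe sets). All 3 belonged to Rab3d. The brightest of them, 10591644, read 10.42, 10.53 and 10.43 in the vector cultures and 10.14, 10.09 and 10.16 in the Meg3 cultures, a small difference (-0.33) with little spread. The largest, 10591652, read 7.83, 7.84 and 7.62 against 6.89, 6.84 and 6.90 (-0.88). Of 9 Rab3d probe sets, 8 were negative and 1 positive, from -0.88 to 0.08. Other bright Rab3d probe sets differed little, 10591646 by 0.08 and 10591647 by -0.02. The probe sets of this gene thus disagreed in size more than in sign. For Rab3a, 7 of 11 probe sets were positive, from -0.43 to 0.47, and for Rab3b 4 of 9, from -1.09 to 0.63, with overlapping groups throughout.

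**Figure D3:**
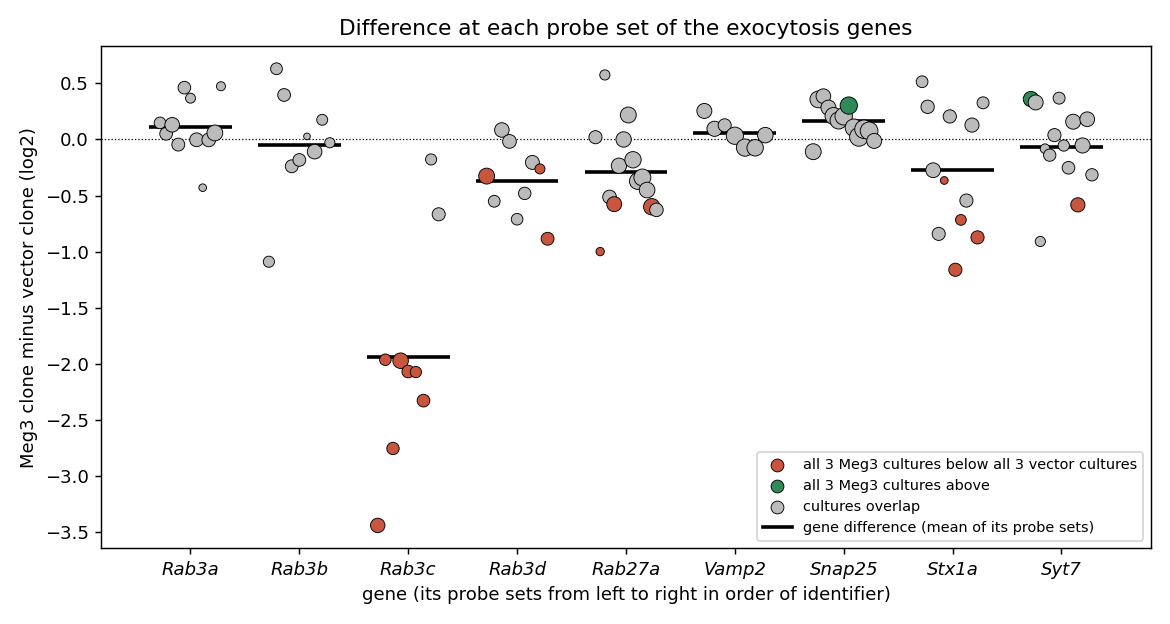
Difference between the clones (log2, Meg3 minus vector) at each probe set of the 9 genes, with larger points for brighter probe sets, red where all 3 Meg3 cultures lay below all 3 vector cultures, green where all lay above, and a black line at the gene's difference. Rab3c probe sets reach from -3.44 to -0.18, while those of the other Rab3 genes scatter around their small gene differences.

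The regions before the start of the 4 Rab3 genes are shown because the genes differ in how far apart the clones lay. The arrays measured RNA, not these regions, and each is 250 bases up to the annotated start in RefSeq's GRCm38.p6 annotation, 5′ to 3′ on the gene's strand. Capitals mark the GC box, GGGCGG on either strand, overlapping matches included. The table holds a second window for Rab3a, not printed.
Rab3c, chr13:110280207-110280456, minus strand: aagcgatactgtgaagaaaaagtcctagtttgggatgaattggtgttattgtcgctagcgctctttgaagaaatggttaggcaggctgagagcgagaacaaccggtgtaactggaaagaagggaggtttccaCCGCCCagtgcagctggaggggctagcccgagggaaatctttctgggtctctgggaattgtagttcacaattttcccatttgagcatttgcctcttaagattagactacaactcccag
Rab3b, chr4:108878820-108879069, plus strand: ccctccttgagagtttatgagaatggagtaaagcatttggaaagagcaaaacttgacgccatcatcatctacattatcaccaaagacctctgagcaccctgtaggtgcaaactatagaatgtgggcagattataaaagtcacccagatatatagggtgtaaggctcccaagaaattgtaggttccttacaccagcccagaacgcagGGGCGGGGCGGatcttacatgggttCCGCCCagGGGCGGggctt
Rab3a, chr8:70754453-70754702, plus strand: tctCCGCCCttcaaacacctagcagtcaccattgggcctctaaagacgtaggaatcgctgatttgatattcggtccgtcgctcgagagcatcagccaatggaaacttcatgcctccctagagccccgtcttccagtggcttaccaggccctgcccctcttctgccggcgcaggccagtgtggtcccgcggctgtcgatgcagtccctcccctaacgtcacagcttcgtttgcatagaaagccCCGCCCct
Rab3d, chr9:21918184-21918433, minus strand: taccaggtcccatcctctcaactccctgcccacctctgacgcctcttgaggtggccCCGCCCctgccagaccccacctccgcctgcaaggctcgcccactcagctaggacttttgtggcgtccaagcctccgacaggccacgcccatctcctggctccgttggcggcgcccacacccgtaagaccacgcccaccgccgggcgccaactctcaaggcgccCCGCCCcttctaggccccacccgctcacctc

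The Rab3c and Rab3b windows had a G and C content of 47.6% and 48.8% with 7 and 6 CpG dinucleotides, against 58.8% with 16 in Rab3a and 69.2% with 18 in Rab3d. The median of 32851 such windows was 52.4% with 6. A GC box occurred once in the Rab3c window, 4 times in Rab3b and 2 times each in the printed Rab3a window and in Rab3d. At least 1 occurred in 32.7% of all windows. The Rab3a window not printed held 0 GC boxes, with a G and C content of 64.4% and 15 CpG dinucleotides. Rab3b alone of the printed windows held TATAAA on either strand (12.4% of all windows). Such matches describe the letters and not a bound factor.

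The genes beside Rab3c did not share its difference. In the gene order of GRCm38.p6, Rab3c lies on chromosome 13. Of its 20 nearest measured neighbours, 10 on each side, 0 were called by limma and 0 had an unadjusted p under 0.05. Over all 20416 genes, 0.666% were called, and 547 higher and 874 lower had an unadjusted limma p under 0.05. The median difference of the neighbours was 0.02, with a range from -0.22 to 0.34. The neighbours next to it were Pde4d, a cAMP phosphodiesterase gene (-0.15, SE 0.14), and the adaptor gene Gapt (0.12, SE 0.14), which was dim. Of the 20, 9 lay above the median level of all genes, so the other 11 say little.

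**Figure D4:**
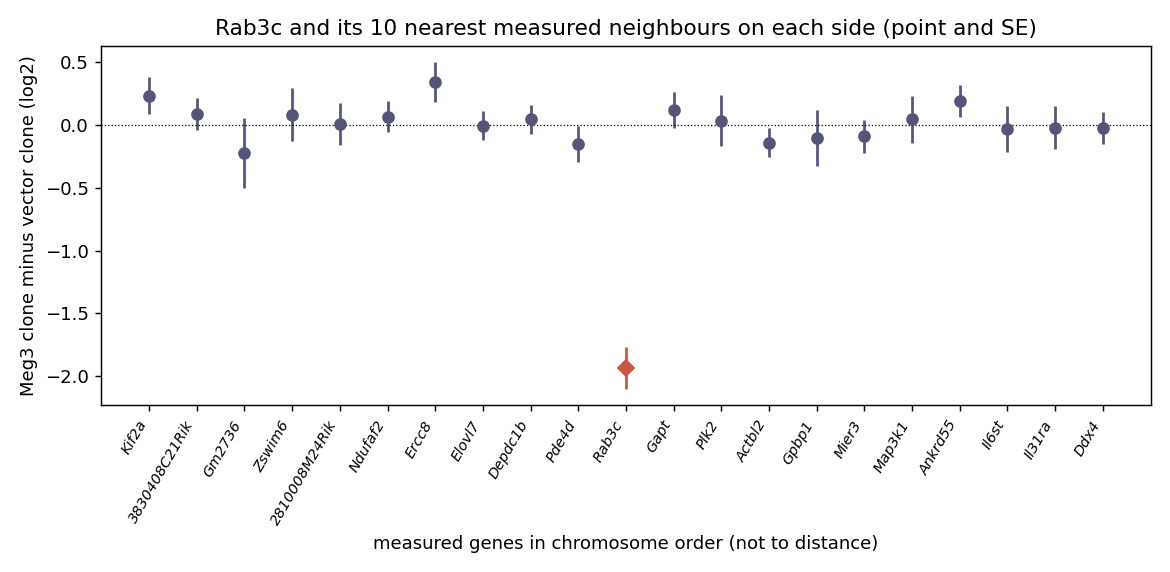
Difference between the clones (log2, point and SE) for Rab3c (red) and its 10 nearest measured genes on each side, in chromosome order and not to distance. The neighbours lie between -0.22 and 0.34, and Rab3c at -1.94.

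By array pattern, the genes closest to Rab3c were Cldn1, 0610037M15Rik, Hoxb9, BC028528 and Tnfsf10. Likeness was the root mean square distance between array-centred values over 6 arrays, among 10207 genes above the median level. The distances were 0.146, 0.183, 0.214, 0.233 and 0.234 log2 units, where the median gene stood at 1.00. They were picked for this likeness, which fixes the direction of their differences of -1.83, -1.75, -1.97, -1.85 and -2.01. Hoxb9 and BC028528 had Meg3 means of 6.41 and 6.52, under the median level. The tight junction gene Cldn1, the closest, read 8.61, 8.47 and 8.60 in the vector cultures and 6.83, 6.62 and 6.74 in the Meg3 cultures.

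Rab27a, the other granule GTPase of the set, had a small negative difference. It read 9.29, 8.87 and 9.19 in the vector cultures and 8.82, 8.79 and 8.87 in the Meg3 cultures. The groups did not overlap, but to 2 decimals vector replicate 2 and Meg3 replicate 3 had the same value. The difference was -0.29 (SE 0.14, 95% interval -0.61 to 0.03). Of the 9 members, 2 (Rab3c and Rab27a) had groups that did not overlap, both lower, where 12.8% of all genes had such groups and 6.39% had them with the Meg3 clone lower. Of 14 Rab27a probe sets, 11 were negative, and in 3 every Meg3 culture was below every vector culture (5.41% of all probe sets). Probe set 10587028 read 9.72, 9.52 and 9.50 against 8.88, 9.16 and 8.98 (-0.58). In 10587031 vector replicate 2 read 8.51 beside 11.02 and 10.92 in the other vector cultures, and Meg3 replicate 1 read 9.87 beside 10.66 and 10.58. Without these arrays the gene difference was -0.41 (SE 0.10), and limma called Rab27a lower, where 5.44% of all genes were called. Rab3c was the only other member called in that fit. The members are described and not tested, so nothing is read from this call.

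The SNARE genes Vamp2 and Snap25 differed by less than the spread between cultures. Vamp2, the granule SNARE, read 10.22, 9.84 and 10.12 in the vector cultures and 9.85, 10.20 and 10.30 in the Meg3 cultures (difference 0.06, SE 0.16, 95% interval -0.32 to 0.43). Its 7 probe sets differed by -0.07 to 0.25, and the groups overlapped in all of them. Snap25, a SNARE of the plasma membrane, was among the brightest genes on the arrays and read 11.37, 10.92 and 11.48 against 11.32, 11.46 and 11.47. Vector replicate 2 alone was low, and the difference was 0.16 (SE 0.16, interval -0.22 to 0.54), or 0.04 (SE 0.10) without the arrays that stood apart. Of its 13 probe sets 11 were positive, and in 1, 10476520, every Meg3 culture was above every vector culture (0.30). That held for 6.08% of all probe sets.

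Stx1a, the syntaxin that pairs with Snap25, read 7.48, 6.88 and 7.40 in the vector cultures and 6.81, 6.98 and 7.14 in the Meg3 cultures. The groups overlapped through vector replicate 2, and the difference was -0.28 (SE 0.18, 95% interval -0.69 to 0.14). Its probe sets differed in sign. In 4 of 12 every Meg3 culture was below every vector culture (5.41% of all probe sets), whereas 5 were positive with overlapping groups. In the positive probe sets 10526262, 10526263, 10526267 and 10526273, vector replicate 2 was low. Its value minus the mean of the other vector cultures was -1.65, -1.08, -2.74 and -1.81. The part of that array in their positive sign was not tested. The sign is therefore read neither as agreement nor as disagreement between probe sets. In 10526271, also positive (0.13), vector replicate 2 was not low. Probe set 10526268 read 8.49, 7.71 and 8.27 against 6.58, 7.18 and 7.23 (-1.16). Probe set 10526272 read 8.12, 8.13 and 7.77 against 6.84, 7.23 and 7.34 (-0.87), while 10526263 read 8.12, 6.88 and 7.80 against 7.80, 7.80 and 8.07 (0.29). Without the arrays that stood apart the gene difference was -0.38 (SE 0.10).

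Syt7, a calcium sensor of granule release with high calcium affinity, read 8.02, 7.05 and 7.79 in the vector cultures and 7.12, 7.81 and 7.72 in the Meg3 cultures. The low values were again those of vector replicate 2 and Meg3 replicate 1, and the difference was -0.07 (SE 0.28, 95% interval -0.70 to 0.57). Its 14 probe sets ranged from -0.91 to 0.37. In 1, 10461471, every Meg3 culture was lower (-0.58), and in 1, 10461460, every Meg3 culture was higher (0.36). The latter read at most 9.69 in the vector cultures and at least 9.73 in the Meg3 cultures. Over all probe sets the shares were 5.41% lower and 6.08% higher. Apart from Rab3c, the gene differences of the members thus ran from -0.37 (Rab3d) to 0.16 (Snap25), 5 of them negative and 3 positive. The median over all 9 was -0.07, where the median over all genes was 0.01.

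Other genes of the machinery were taken from 6 lists, and 84 of them were analysed here. With all 6 arrays, 0 of the 84 were called by limma, where 0.666% of all genes were called. At that share, 0 calls among 84 genes say little. At an unadjusted limma p under 0.05 there were 4 higher and 1 lower of the 84. All 20416 genes gave 547 higher and 874 lower. The median difference was 0.02, with 45 positive and 39 negative. Groups did not overlap for 7 of the 84, 3 lower and 4 higher, where 12.8% of all genes had such groups. None of the lists held a difference as large as that of Rab3c.

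Among Rab and Ral GTPases of granules and vesicles (8 measured, median -0.07), the brightest were Rala (-0.24, SE 0.14), which tethers granules to the exocyst, and Rab2a (0.03, SE 0.13). In the list of Rab3 and Rab27 effectors and related active zone genes (18 measured, median 0.03), the brightest were Sytl4 and Rims2. Sytl4 is the granuphilin gene, and Rims2 is an active zone scaffold gene (0.14, SE 0.13). Sytl4 read 9.55, 9.33 and 9.52 in the vector cultures and 9.70, 9.78 and 9.83 in the Meg3 cultures, which did not overlap, yet its difference was not called (0.30, SE 0.12; limma adjusted p = 0.616). Among genes of the Rab cycle, which load, extract or lipidate Rab proteins (11 measured, median -0.02), Gdi2 differed by -0.06 (SE 0.13) and the geranylgeranyl transferase subunit gene Rabggtb by 0.04 (SE 0.12).

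The other SNARE genes (11 measured, median -0.10) were led in brightness by Vamp3 (0.01, SE 0.12) and Vamp7 (-0.08, SE 0.19), both vesicle SNAREs. Of the SNARE regulators (20 measured, median 0.07), the ATPase gene Nsf, whose product takes spent SNARE complexes apart, differed by 0.17 (SE 0.21). Cadps, which encodes the granule priming factor CAPS1, read 9.77, 9.95 and 9.77 in the vector cultures and 9.51, 9.22 and 9.26 in the Meg3 cultures. These groups did not overlap, and the difference was not called (-0.50, SE 0.13; limma adjusted p = 0.218). It had the smallest adjusted p of the 84 genes.

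Among the other synaptotagmins (16 measured, median 0.02), the brightest were Syt4 (-0.10, SE 0.15) and Syt13 (0.02, SE 0.29). The following were chosen after their values were seen. Syt5 had the lowest difference of the 84 genes, with 8.95, 7.78 and 8.94 in the vector cultures and 7.42, 8.15 and 8.16 in the Meg3 cultures (-0.65, SE 0.34; limma adjusted p = 0.860), and the groups overlapped through vector replicate 2. Syt17, which was dim, had the highest, with 5.89, 5.64 and 6.24 against 6.43, 6.58 and 6.57 (0.60, SE 0.16; limma adjusted p = 0.258). Without vector replicate 2 and Meg3 replicate 1, limma called 5 of the 84, beside 5.44% of all genes: Syt5 (-0.79, SE 0.09), Cadps (-0.53, SE 0.09), Rab37 (-0.42, SE 0.10) and Stxbp5l (-0.39, SE 0.09) were lower and Syt17 (0.51, SE 0.12) was higher. With 5 of 84, that share is close to the background of the same fit.

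**Figure D5:**
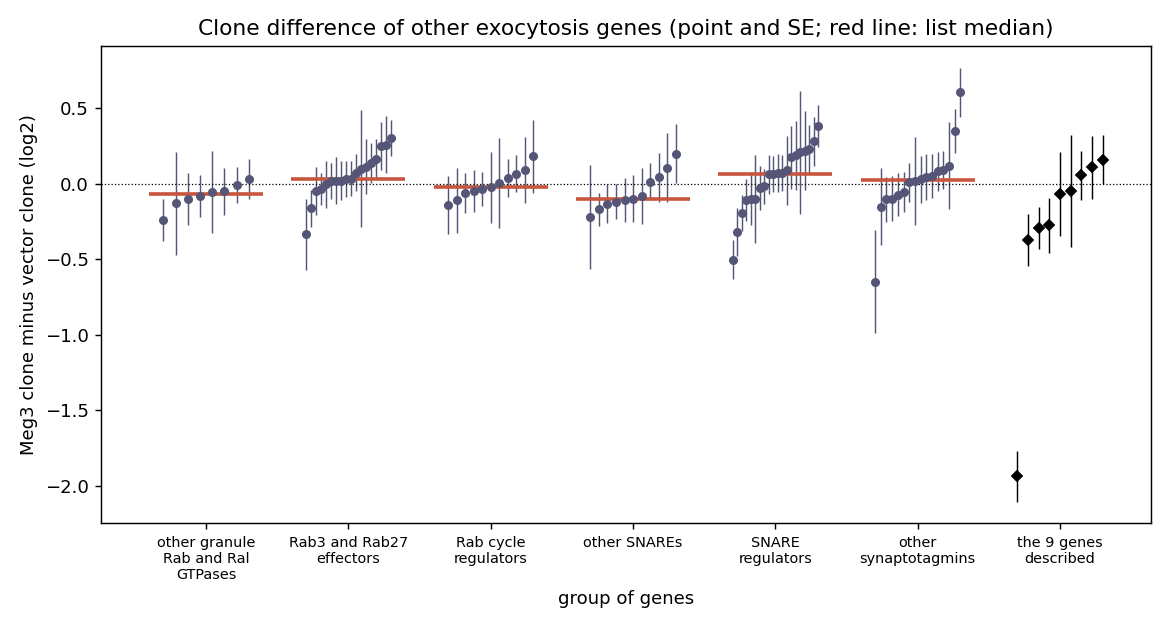
Difference between the clones (log2, point and SE) for 84 further exocytosis genes in 6 lists, sorted within each list, with the list median as a red line and the 9 genes described as black diamonds. The 84 genes lie between -0.65 and 0.60, and Rab3c at -1.94 lies outside that range.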

How the data were processed

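Expression was measured on 6 Affymetrix arrays from 6 µg of total RNA each, 3 per clone. The values the authors deposited are on a log2 scale, by probe set; RMA and Partek are named, without versions, per the submitters' processing notes. The genome build is not given in the sources used here. Precision is limited by the number of arrays.

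The annotation gave 1 symbol to 212097 of 241419 probe sets, several to 4475 and none to 24847. A gene's value was the mean of its probe sets with 1 symbol. The clones were compared by lmFit and eBayes of limma 3.58.1, run in R 4.3.3 (two-sided, no covariates, no filter), adjusted by Benjamini-Hochberg over 20416 genes. The fit was tested on simulated data. An exact permutation test of 3 against 3 arrays cannot give a p under 0.1. Gene order came from the GRCm38.p6 gene table (20363 symbols matched, 2742 through a synonym).

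The members, lists and alternatives were chosen with earlier results of these data known. The text names all members, the called or else the 2 brightest genes of each list, the nearest and any called neighbours of Rab3c and its 5 most alike genes. Alternatives were a replicate block, array centring, repeated quantile normalization, leaving out the dimmest 30% of genes, other summaries of probe sets, trended robust eBayes, and leaving out arrays. A mean over the later probe sets of a gene, those past the middle in identifier order, was added after the data were seen. Each probe set was also tested singly.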

Additional observations from a re-analysis of the deposited data

How the results depend on the processing

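Rab3c, on whose difference the set was chosen, was lower in all 16 alternatives, which is no independent support. Its difference ran from -2.10 to -1.46, and from -2.06 to -1.77 with 1 array left out. The smallest, -1.46, came from the later probe sets by identifier (the last 5 of 9), an alternative chosen after seeing the data; this mean leaves out the probe set with the largest difference and keeps both that overlap. Rab3d, Rab27a and Stx1a were negative in all 16. Rab3d reached -0.81 with the median of its probe sets (the cause was not tested). Rab3a, Rab3b, Vamp2, Snap25 and Syt7 took either sign. The count of called genes was 136. It was 40 with the brightest probe set, 58 with the median of probe sets, 30 with the replicate block, 22 to 349 with 1 array left out (lowest without Meg3 replicate 3, highest without vector replicate 2) and 1111 when vector replicate 2 and Meg3 replicate 1 were both dropped. Of the 84 other exocytosis genes, 5 were called in that last fit and 0 in the rest. Rab27a was likewise called in that fit alone. The deviations of same-numbered cultures from their group means correlated across genes at -0.61, -0.63 and 0.28. Deviations within a group depend on each other, and the arrays that stood apart carry different numbers. These correlations therefore cannot show whether the numbers pair the cultures. With the replicate block the difference of Rab3c was -1.94.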
